A study of Mus musculus with 6 samples.

Results

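The miR-30 family was examined by miRNA sequencing in the fetal liver of mice, in 3 libraries of wild-type (WT) embryos and 3 of embryos homozygous for a deletion of the miR-144/451 locus (KO). Its members were taken by name from the deposited miRNA abundance table, and 9 of 9 listed strands were present among 1626 miRNAs. They are the 5p strands mmu-miR-30a-5p, mmu-miR-30b-5p, mmu-miR-30c-5p, mmu-miR-30d-5p and mmu-miR-30e-5p and the 3p strands mmu-miR-30a-3p, mmu-miR-30b-3p, mmu-miR-30d-3p and mmu-miR-30e-3p, written below without the species prefix. All embryos were of the C57BL/6J strain and carried no label for age, sex or litter, so the replicates may be technical in part and a p-value covers only their spread. Each library was made from 5000000 fetal liver cells and held between 16243894 and 27089133 miRNA counts. WT libraries are numbered 1 to 3 and KO libraries 4 to 6.

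A miRNA is cut from a hairpin precursor, and usually one strand, the guide, stays in an Argonaute protein while the other, the passenger, is mostly degraded. The guide finds target mRNAs mainly through its seed, bases 2 to 8 from the 5′ end, so miRNAs with the same seed form a family with largely shared targets. The miR-30 family is widely expressed, and is known for roles in hepatobiliary development, for restraining mesenchymal transition and fibrosis in epithelial cells including hepatocytes, and for acting on the Notch ligand Dll4 in endothelium. Fetal liver is a blood-forming organ that holds erythroid precursors together with hepatoblasts, macrophages and endothelial cells. These are bulk libraries, in which fewer cells of a type and less RNA per cell cannot be told apart.

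The sequences show what the guides share and where they part. RefSeq sequences (GRCm38.p6) were matched for 5 of the 9 members and for the relatives miR-30c-1-3p, miR-30c-2-3p and miR-384-5p, and are written 5′ to 3′ with the seed in capitals.
miR-30a-5p: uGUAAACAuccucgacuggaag
miR-30e-5p: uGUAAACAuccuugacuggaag
miR-30c-5p: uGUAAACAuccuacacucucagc
miR-384-5p: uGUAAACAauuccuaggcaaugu
miR-30a-3p: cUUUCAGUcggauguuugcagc
miR-30e-3p: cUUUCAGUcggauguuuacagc
miR-30c-1-3p: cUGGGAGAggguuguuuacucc
miR-30c-2-3p: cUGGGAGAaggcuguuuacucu

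All 3 matched guides carried the seed GUAAACA. In the RefSeq table of 1679 mature miRNAs this seed occurred in 4 sequences, these 3 and miR-384-5p. No sequence was matched for the guides miR-30b-5p and miR-30d-5p, so neither entered this count. The 3p strands with a matched sequence fell into a pair of other seed groups. These were UUUCAGU in miR-30a-3p and miR-30e-3p, and UGGGAGA in both miR-30c passengers and in miR-6958-5p, which is outside the family. The seeds of miR-30b-3p and miR-30d-3p were not examined, for want of a matched sequence. miR-30a-5p and miR-30e-5p differed by a single substitution, C13U, with positions counted from the 5′ end and the base of miR-30a-5p given first. Their passengers differed by G18A, with miR-30a-3p given first.

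The hairpins of miR-30a and miR-30e are shown because they place guide and passenger in one precursor, with both mature strands in capitals, the guide first.
Mir30a: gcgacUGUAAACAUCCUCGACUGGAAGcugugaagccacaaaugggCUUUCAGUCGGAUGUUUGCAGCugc
Mir30e: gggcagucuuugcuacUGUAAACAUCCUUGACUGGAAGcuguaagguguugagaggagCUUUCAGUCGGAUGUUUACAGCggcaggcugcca

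The family comes from 6 hairpins in 3 genomic clusters (GENCODE M21, GRCm38). Mir30a lies on the plus strand of chromosome 1 at 23272269 to 23272339, in no other annotated gene, and Mir30c-2 lies 19361 bases downstream at 23291701 to 23291784, within an exon of the lincRNA Gm27028. Mir30c-1 (chromosome 4, 120769534 to 120769622) and Mir30e (120772606 to 120772697) are on the minus strand, 2983 bases apart, both within intronic sequence of Nfyc, which encodes a subunit of the CCAAT-binding factor NF-Y. Mir30b (68337415 to 68337510) and Mir30d (68341208 to 68341289) are on the minus strand of chromosome 15, 3697 bases apart. Mir30d lies within an exon of the lincRNA Gm20732 and partly overlaps an exon of the annotated gene Gm37296. Mir30b partly overlaps an exon of the processed transcript Gm26621. The miR-30c guide is encoded by both Mir30c-1 and Mir30c-2, so its counts cannot be assigned to either.

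The rows of miR-30b-5p and miR-30c-5p held almost the same counts. WT libraries 1 to 3 gave 363839, 527862 and 414397 counts for miR-30b-5p and 363608, 527169 and 414013 for miR-30c-5p. KO libraries 4 to 6 gave 390075, 372266 and 506304 against 389774, 371948 and 505970. The largest difference in any library was 0.131%, so the pair was treated as 1 signal. Whether both rows count the same reads was not tested, since the counting of reads that match several miRNAs is not given. No other member had a row of the table within 5% of its counts in every library. The nearest cases were miR-19b-3p, within 11.5% of miR-30e-5p, and miR-6240, within 18.3% of miR-30b-3p.

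Near-identical rows were common in the table: 63 pairs among the 539 miRNAs that averaged 100 counts or more lay within 5% of each other in all 6 libraries. Of these, 43 pairs, miR-30b-5p and miR-30c-5p among them, lacked a RefSeq sequence for at least 1 partner. Among 441 miRNAs that had a RefSeq sequence and averaged 100 counts or more, 18 pairs shared 16 or more bases from the 5′ end, and 12 of these had counts within 5% of each other in all 6 libraries. Of 93 pairs that shared 8 to 15 bases, 0 did, and 8 near-identical pairs shared fewer than 8, such as miR-300-3p and miR-381-3p (named after their values were seen). An unbroken shared start therefore accompanied part of the near-identical rows and not all. The count of shared bases stopped at the first difference. Likeness further along the sequence, also in the pairs with fewer than 8 shared bases, was therefore not measured. miR-30a-5p, miR-30c-5p and miR-30e-5p share their first 12 bases with each other, and the largest difference in any library was 41.6% to 66.7% over these 3 pairs. miR-30a-3p and miR-30e-3p share 17 bases, and their counts differed by up to 24.5%. Whether part of their reads was counted in both rows was not tested.

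**Figure D1:**
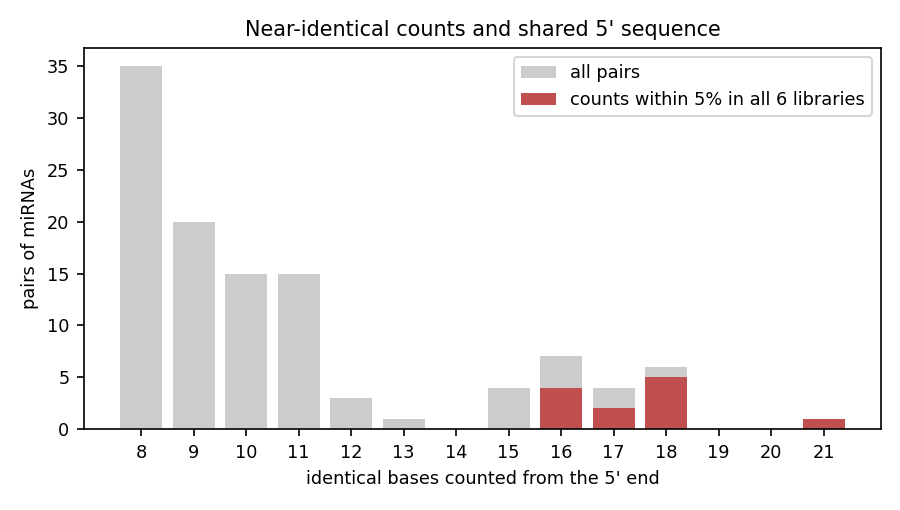
Pairs of miRNAs (vertical axis, number of pairs) by the number of identical bases from the 5′ end (horizontal axis, 8 or more shown), for 441 miRNAs that averaged 100 counts or more. Grey bars are all pairs and red bars those with counts within 5% in all 6 libraries; within this range red appears from 16 bases upward, 12 of 18 pairs; pairs with fewer than 8 shared bases are not drawn.

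The deleted locus, checked first, took 17.6% to 24.1% of miRNA counts in the WT libraries and 0.0214% to 0.0231% in the KO libraries, as the labels require. The summed miRNAs of hepatocytes (5 of 5 listed in the table) spanned 34270 to 133076 counts per 1000000 after TMM scaling (CPM) in WT and 42683 to 103310 CPM in KO. The summed levels also overlapped between genotypes for endothelial (2 of 2 listed; 7323 to 10523 and 7734 to 11046 CPM) and mesenchymal miRNAs (4 of 4). Muscle miRNAs (3 of 3) overlapped too, at 14.4 to 400 CPM in WT and 13.3 to 83.5 CPM in KO. The tops of these ranges were WT library 1 and KO library 4 alone, with the other libraries at 20.5 CPM or lower. The erythroid miR-486a-5p overlapped, as did miR-223-3p of myeloid cells, at 15316 to 20383 CPM in WT and 8636 to 16013 CPM in KO. For miR-223-3p, KO libraries 4 and 6 lay below all WT libraries. No marker was at 0 in every library. The part of these differences between libraries in the values that follow was not tested.

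The miR-30 guides were among the abundant miRNAs of fetal liver and did not differ detectably between the genotypes. By mean level miR-30b-5p and miR-30c-5p ranked 8 and 9 of 876 tested miRNAs, miR-30a-5p 26, miR-30e-5p 33 and miR-30d-5p 38. Summed over the 5 rows, they took 5.74% ± 0.278 of all miRNA counts in WT and 7.12% ± 0.313 in KO (SD, n = 3 each). With the locus left out of the total the shares were 7.23% ± 0.0929 and 7.12% ± 0.313, so the higher share in KO was seen only against a total that included the locus. The 3 KO libraries lay at 7.41%, 7.16% and 6.79% on that scale and the WT libraries at 7.23%, 7.33% and 7.14%, and the ranges overlap. With the miR-30b-5p and miR-30c-5p pair counted once, by the row of miR-30b-5p, the shares of all counts were 3.91% ± 0.180 in WT and 4.86% ± 0.167 in KO (SD, n = 3 each), and outside the locus 4.92% ± 0.0469 and 4.86% ± 0.167. Here miR-30c-5p was left out of the sum only, and the totals kept both rows of the pair. A sum over chosen members is described only and was not tested.

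The order of the guides was the same in every library. Counting the miR-30b-5p and miR-30c-5p pair once, it gave 47.1% ± 0.50 of the guide counts in WT and 46.3% ± 1.5 in KO, miR-30a-5p 24.3% ± 1.26 and 25.2% ± 1.24, miR-30e-5p 15.8% ± 0.268 and 16.4% ± 1.27, and miR-30d-5p 12.8% ± 0.631 and 12.1% ± 1.09 (SD, n = 3 each). The levels of neighbours in this order did not overlap over the 6 libraries, apart from the inseparable pair at the top.

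miR-30b-5p stood at 19882, 21866 and 20744 CPM in WT and 19670, 20560 and 19401 CPM in KO. The highest value was WT library 2 and the lowest KO library 6, with the genotypes overlapping. miR-30c-5p, with nearly the same counts, stood at 19869, 21838 and 20725 CPM in WT and 19655, 20542 and 19388 CPM in KO. Their log2 folds were -0.068 and -0.067 (KO over WT; SE 0.095 for both, 95% interval -0.29 to 0.16; edgeR Benjamini-Hochberg adjusted p = 0.84).

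miR-30a-5p, a guide of the chromosome 1 cluster, stood at 10024, 10799 and 11470 CPM in WT and 9827, 11218 and 11398 CPM in KO. Each genotype held both low and high libraries, so the spread lay within the groups and not between them. Its log2 fold was 0.0067 (SE 0.12, 95% interval -0.27 to 0.28; edgeR adjusted p = 0.999). WT library 3 and KO library 6, where miR-30a-5p had its highest WT value and its highest KO value, also held the highest hepatocyte sums within their genotype. The endothelial and mesenchymal sums were highest in these libraries too, while muscle miRNAs, miR-223-3p and miR-486a-5p were highest in others. The part of any cell type in the order of miR-30a-5p was not tested.

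miR-30e-5p, which comes from Nfyc and differs from miR-30a-5p by C13U, stood at 6793, 7293 and 6908 CPM in WT and 6545, 7971 and 6658 CPM in KO. KO library 5 held the highest value and the other KO libraries the lowest. The log2 fold was 0.012 (SE 0.12, 95% interval -0.28 to 0.31; edgeR adjusted p = 0.999). miR-30d-5p, from the chromosome 15 cluster, stood at 5633, 5984 and 5386 CPM in WT and 4977, 4896 and 5664 CPM in KO. KO libraries 4 and 5 lay below all WT libraries, and KO library 6 lay among them. Its log2 fold, -0.13 (SE 0.12, 95% interval -0.41 to 0.15; edgeR adjusted p = 0.702), was the lowest of the 9 members.

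**Figure D2:**
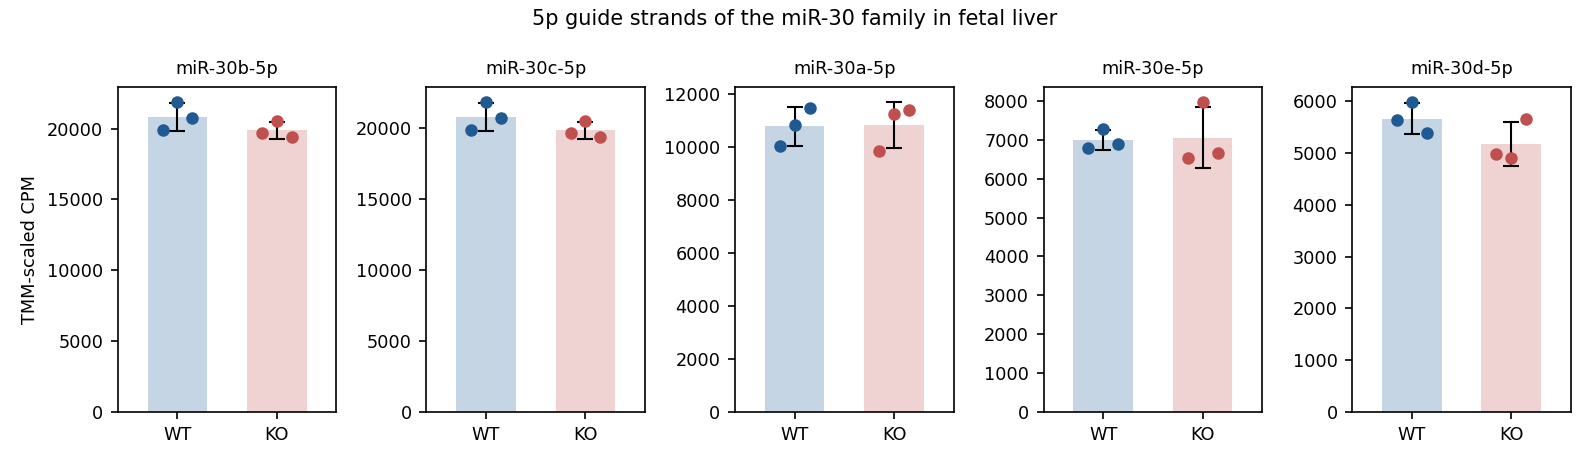
TMM-scaled CPM (linear axes from 0) of the 5 guide strands in 3 WT and 3 KO libraries; points are libraries in numerical order from left to right, bars group means and error bars SD. The WT and KO points overlap in all 5 panels, and the panels of miR-30b-5p and miR-30c-5p are nearly the same, since their counts differ by at most 0.131%.

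The guides varied little between libraries. The highest library exceeded the lowest by a factor of 1.13 for miR-30b-5p and 1.22 for miR-30d-5p, the smallest and largest such factors among the 4 separable guide signals. The median within-genotype SD over the 5 guide rows was 0.098 on the log2 scale, where the 100 miRNAs outside the locus with a mean of at least 1000 CPM had a median of 0.19. Of those 100 miRNAs, 5% had a smaller SD than miR-30b-5p, 17% a smaller one than miR-30d-5p, 19% than miR-30a-5p and 22% than miR-30e-5p. These shares describe the 6 libraries and were not tested.

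The passenger strands were far less abundant and spread more widely. miR-30a-3p stood at 853, 946 and 846 CPM in WT and 779, 1130 and 994 CPM in KO. KO library 5 was highest and KO library 4 lowest, on either side of all WT libraries. Its log2 fold was 0.13 (SE 0.18, 95% interval -0.28 to 0.55; edgeR adjusted p = 0.832). miR-30e-3p, with the same seed, stood at 710, 799 and 639 CPM in WT and 612, 935 and 766 CPM in KO, again with KO library 5 highest and KO library 4 lowest. Its log2 fold was 0.11 (SE 0.20, 95% interval -0.36 to 0.58; edgeR adjusted p = 0.907).

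miR-30a-3p was higher than miR-30e-3p in each of the 6 libraries, at 1.18 to 1.32 counts per count of miR-30e-3p. The guides of the same hairpins stood at 1.41 to 1.71 counts of miR-30a-5p per count of miR-30e-5p. Both ratios differed between the genotypes by less than their spread, with means of 1.26 ± 0.0467 and 1.24 ± 0.0759 for the passengers and 1.54 ± 0.156 and 1.54 ± 0.105 for the guides (KO and WT in turn, SD, n = 3 each).

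The passengers of the chromosome 15 cluster were close to each other and rare. miR-30d-3p held 256, 422 and 351 counts in WT and 288, 431 and 536 in KO, or 14.0, 17.5 and 17.6 CPM against 14.5, 23.8 and 20.5 CPM. Of the KO libraries, 5 and 6 lay above all WT libraries and 4 lay among them. Its log2 fold of 0.26 (SE 0.24, 95% interval -0.31 to 0.84; edgeR adjusted p = 0.714) was the highest of the 9 members. miR-30b-3p stood at 13.7, 19.5 and 12.8 CPM in WT and 11.1, 17.2 and 17.1 CPM in KO, and its log2 fold was -0.017 (SE 0.27, 95% interval -0.66 to 0.62; edgeR adjusted p = 0.999). The levels of this pair overlapped, so their order was not resolved. By contrast, the miR-30b-5p row, which cannot be separated from miR-30c-5p, held 3.43 to 4.20 counts per count of miR-30d-5p.

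**Figure D3:**
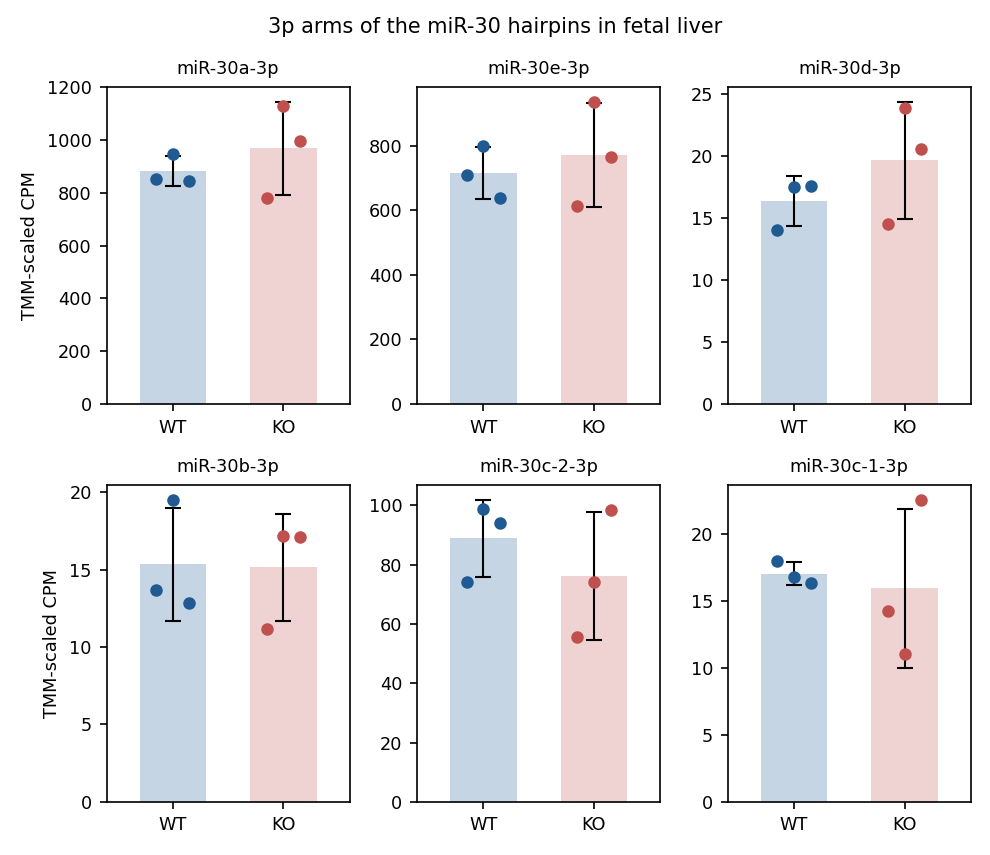
TMM-scaled CPM (linear axes from 0) of the 3p strands of the 6 miR-30 hairpins in 3 WT and 3 KO libraries; points are libraries in numerical order from left to right, bars group means and error bars SD. miR-30a-3p, miR-30e-3p and miR-30d-3p are highest in KO library 5, while miR-30c-1-3p is lowest there at 11.0 CPM; WT and KO overlap in every panel.

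Tested across the whole table, 0 of the 9 members passed in either direction. All 9 passed the filter on low counts. edgeR's quasi-likelihood test called 0.799% of the 876 tested miRNAs, 0.457% higher in KO and 0.342% lower, the latter being the 3 products of the deleted locus. Members were also called 0 times by DESeq2 and limma-voom, which called 0.963% and 0.913% of the miRNAs they tested, and 0 members had an unadjusted edgeR p under 0.05, against 11.3% of all tested. The 3 KO values lay above the 3 WT values for 0 members, against 15.9% of all tested miRNAs, and below them for 0, against 5.94%. With so few members, of which 2 rows are near-identical, counts of 0 are near this background.

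Of the 9 folds 5 were above 0 and 4 below, with a median of 0.0067, where the 873 tested miRNAs outside the locus had a median of -0.014. The median size of the fold, without its sign, was 0.068 for the members, 0.27 for all 873 and 0.15 for the 100 most abundant. The guides spanned -0.13 to 0.012 and the passengers -0.017 to 0.26. Over the 5 guides the 95% intervals reached no lower than -0.41 and no higher than 0.31 on the log2 scale, while for the passengers they ran from -0.66 to 0.84. An interval that includes 0 does not show that the levels were equal. These folds are relative to the typical miRNA: scaled to whole library totals, where the median of the 873 miRNAs was 0.34, all 9 members were above 0, at 0.23 to 0.61, and 0 passed the test (lowest edgeR adjusted p = 0.0978). Without KO library 5 the median of the 4 passengers went from 0.12 to -0.051, and without WT library 3 to -0.0032, so its sign rests on single libraries.

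**Figure D4:**
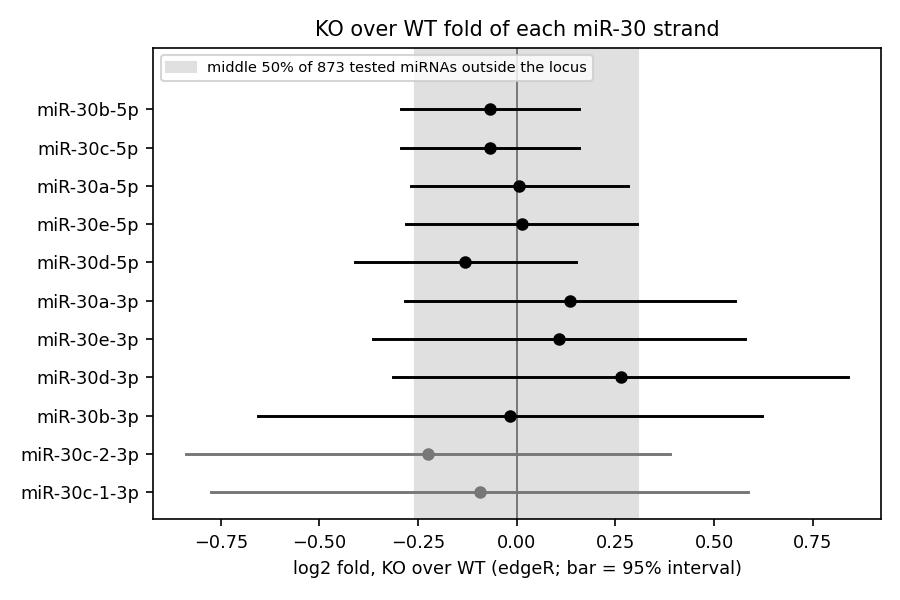
Log2 fold of KO over WT (horizontal axis; points, with 95% intervals as bars) for the 9 members (black) and the passengers of miR-30c (grey), from edgeR over all 876 tested miRNAs; the grey band holds the middle 50% of the 873 tested miRNAs outside the locus. Every interval includes 0, and the guide intervals lie within -0.41 to 0.31.

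The ratio of guide to passenger counts differed widely between hairpins and not detectably between genotypes. miR-30b had 1450, 1118 and 1612 counts of the 5p strand per 3p count in WT and 1757, 1193 and 1130 in KO, although its 5p row is not separable from that of miR-30c. miR-30d had 401, 341 and 306 in WT and 342, 205 and 275 in KO. miR-30a had 11.7, 11.4 and 13.6 in WT and 12.6, 9.93 and 11.5 in KO, and miR-30e 9.56, 9.13 and 10.8 in WT and 10.7, 8.52 and 8.69 in KO. The passenger was thus far rarer beside its guide in miR-30b and miR-30d than in miR-30a and miR-30e.

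The KO minus WT difference of the log2 strand ratio was -0.37 for miR-30d (SE 0.24, 95% interval -0.94 to 0.20), -0.11 for miR-30a (SE 0.19, -0.56 to 0.33), -0.084 for miR-30e (SE 0.19, -0.53 to 0.36) and -0.047 for miR-30b (SE 0.26, -0.64 to 0.55). Limma's trend method over 263 hairpins gave adjusted p of 0.856 to 0.977 for these 4. It called 0% of all hairpins, with 5.32% at an unadjusted p under 0.05 and 0 of the miR-30 hairpins among them. KO library 5 had the lowest ratio of all 6 libraries for miR-30a, miR-30d and miR-30e. The median change from the WT mean over the 4 miR-30 hairpins was -0.25 in that library, -0.23 in KO library 6 and 0.086 in KO library 4, against 0.019, -0.10 and 0.15 in WT libraries 1 to 3. Over 129 other hairpins with more 5p than 3p counts the change was -0.073 in KO library 5 and between -0.0036 and 0.019 in the other 5 libraries.

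**Figure D5:**
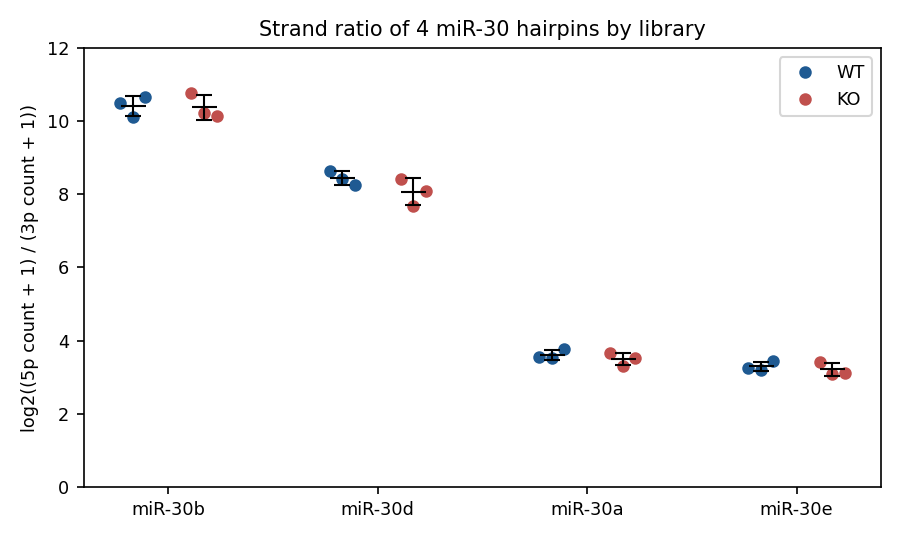
Log2 ratio of 5p to 3p counts (vertical axis, 1 added to each count) for 4 miR-30 hairpins in 3 WT (blue) and 3 KO (red) libraries; points are libraries in numerical order from left to right, black marks means and error bars SD. miR-30b and miR-30d lie near 8 to 11, miR-30a and miR-30e between 3 and 4, and the genotypes overlap within each hairpin.

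The passengers of miR-30c differ in sequence between its hairpins, unlike the guide, and were counted in separate rows. miR-30c-2-3p stood at 74.3, 98.7 and 94.0 CPM in WT and 55.6, 74.3 and 98.5 CPM in KO, with a log2 fold of -0.22 (SE 0.26; edgeR adjusted p = 0.81). miR-30c-1-3p stood at 18.0, 16.8 and 16.4 CPM in WT and 14.3, 11.0 and 22.6 CPM in KO, with a log2 fold of -0.094 (SE 0.29; edgeR adjusted p = 0.971). The chromosome 1 passenger exceeded the chromosome 4 passenger in all 6 libraries, by factors of 3.90 to 6.73.

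Passengers from intronic sequence of the same gene did not keep a fixed ratio. miR-30e-3p and miR-30c-1-3p, both from Nfyc, stood at 39.5, 47.5 and 39.0 counts to 1 in WT and 42.9, 84.7 and 33.9 to 1 in KO. KO library 5 stood apart, with 16932 counts of miR-30e-3p and 200 of miR-30c-1-3p, and its exact binomial 95% interval of 73.6 to 97.8 did not reach those of the other 5 libraries, which lay between 31.3 and 52.5. The intervals of those other libraries did not all overlap each other either. In KO library 6 it was 31.3 to 36.9, below KO library 4 (38.1 to 48.4) and WT library 2 (43.1 to 52.5). Such an interval covers only the sampling of reads and not the variation between replicates. The reads carry no molecular identifiers, so copies of the same molecule can make it too narrow. The genotype means, 42.0 ± 4.76 in WT and 53.8 ± 27.1 in KO (SD, n = 3 each), differed by less than the KO spread. On chromosome 1, miR-30a-3p stood at 11.5, 9.59 and 9.0 counts per count of miR-30c-2-3p in WT and 14.0, 15.2 and 10.1 in KO, and the genotypes overlapped. In the chromosome 15 cluster miR-30d-3p stood at 1.02, 0.896 and 1.37 per count of miR-30b-3p in WT and 1.30, 1.39 and 1.20 in KO.

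The other relatives were rare. miR-384-5p, which carries the miR-30 guide seed and is encoded on chromosome X (105344332 to 105344354), held 13, 0 and 3 counts in WT and 0, 0 and 2 in KO, and was not tested. A count of 0 allows up to 0.111 to 0.185 counts per 1000000 of the library total, taking 3 counts as the limit. miR-384-3p held 22, 10 and 1 counts in WT and 2, 2 and 4 in KO. At this depth miR-384-5p added little to the pool of strands with the GUAAACA seed.

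The miRNAs whose library profile was most like that of the guides were found from centred log2 CPM over the 6 libraries, as the root mean square difference from the mean of the 5 guides, in which the inseparable pair enters as 2 rows. Among 225 candidates with a mean of at least 100 CPM the median difference was 0.25. Rows with counts within 5% of one already named in every library were left out. The nearest of the rest were miR-27a-3p at 0.031, miR-450a-1-3p at 0.051, miR-324-3p at 0.058, miR-3963 at 0.059 and miR-151-3p at 0.088. The row of miR-450a-1-3p holds nearly the same counts as miR-450b-3p (within 0.434%). miR-27a-3p, whose row holds nearly the same counts as miR-27b-3p (within 0.392%), stood at 2274, 2408 and 2263 CPM in WT and 2154, 2402 and 2206 CPM in KO, with a log2 fold of -0.039 (SE 0.12). The guide mean itself lay between -0.090 in KO library 4 and 0.083 in WT library 2 around its average, so this likeness is mainly one of flat profiles. It is a description of 6 libraries that share their depth scaling, with no test.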

How the data were processed

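Total RNA of fetal liver cells (Qiagen miRNeasy Mini, per the labels' protocols) was made into NEXTflex small RNA libraries for HiSeq2000 sequencing. The deposited table holds the authors' raw read counts per mature miRNA and, for each library, a percent column that the authors derived from those counts (recomputed to within 5.0e-09). Cutadapt is named in the submitters' processing notes; the aligner, annotation release, build and treatment of multi-mapping reads are not given in the sources used here. Although HITS-CLIP stands in the series' design text, the labels of the samples give miRNA-Seq of total RNA, and the values were treated so.

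Counts were tested in R 4.3.3 with edgeR 4.0.16 (TMM, filterByExpr, glmQLFit and glmQLFTest, KO against WT), over 876 miRNAs, with 750 left out by the filter and Benjamini-Hochberg adjusted p under 0.05 called. SE is the absolute log2 fold over the square root of F. Strand ratios, log2((5p + 1)/(3p + 1)), were tested with limma 3.58.1 over the 263 hairpins that averaged 10 or more counts on each strand. DESeq2 1.42.0, limma-voom, other scalings, no filter and leaving out each library were alternatives. On simulated counts edgeR recovered 95.1% of 102 changes of 2 log2 units and 32.7% of 98 of 1 unit, over 858 miRNAs. It also called 5 unchanged miRNAs. The changed miRNAs were drawn at random from all but the rarest rows, so these shares do not give the sensitivity for the miR-30 members. No within-group pair of libraries matched within sampling noise (chi-square per degree of freedom 152 to 2335).

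Named were all 9 members, 5 listed relatives, the 5 nearest profiles, and any row within 5% of a member. Of the relatives, miR-30f had no row of counts and was not analysed here. Nearest rows beyond 5%, miR-27b-3p and miR-450b-3p were named after their values were seen. Members, lists and tests were chosen with earlier results of these data known.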

Additional observations from a re-analysis of the deposited data

How the results depend on the processing

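No miR-30 member passed the test in any of the 13 alternatives for the folds (117 values, lowest adjusted p 0.0978, edgeR with no scaling factor), and none of the 4 strand ratios did in the 9 tried for them. The sign of the small folds was not stable, changing in 29 of the 117 values. miR-30a-5p and miR-30e-5p were at -0.060 and -0.052 with RLE scaling, -0.069 and -0.066 after removal of the locus and -0.054 and -0.045 with DESeq2. miR-30b-5p, miR-30c-5p and miR-30b-3p were at 0.043, 0.043 and 0.074 with upper-quartile scaling. With no scaling factor these 3 stood at 0.29, 0.29 and 0.33 and miR-30d-5p at 0.23. Leaving out 1 library at a time gave -0.049 to -0.0037 for miR-30a-5p, -0.11 to 0.038 for miR-30e-5p, -0.019 to 0.19 for miR-30a-3p, -0.083 to 0.17 for miR-30e-3p and -0.20 to 0.12 for miR-30b-3p, and -0.25 to 0.072 for the strand ratio of miR-30b. The cause of these changes of sign was not tested.

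The KO minus WT difference in the share of the 5 guide rows was 1.37 percentage points of all counts. It was -0.12 with the locus out of the total and 1.23 to 1.54 with single libraries left out. With the near-identical pair counted once in the sum but not in the total, an alternative chosen after seeing the data, it was 0.957. Over all tested miRNAs 4 were higher and 3 lower in KO. The higher count was 1 with RLE scaling, upper-quartile scaling or the locus removed, 58 with no scaling factor, 10 with DESeq2 and 0 to 1 with single libraries left out. The lower count was 5 with DESeq2 and 0 with the locus removed, where the 3 lower miRNAs are absent by construction. No paired analysis was possible because WT and KO libraries share no replicate numbers.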
